A study of Homo sapiens with 4 samples.

Results

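Nuclear genes that encode subunits of the oxidative phosphorylation complexes were followed in nascent RNA of K562 cells. The members were taken from GENCODE 29 as the protein-coding genes with symbols that start with NDUFA, NDUFB, NDUFC, NDUFS, NDUFV, UQCR, COX4, COX5, COX6, COX7, COX8, ATP5F1, ATP5M or ATP5P, together with SDHA, SDHB, SDHC, SDHD and CYC1, while assembly factors named NDUFAF were left out. This rule gave 90 genes, and no measured value entered it. Reads were placed on introns of 78 of them, out of 17526 genes in all. For this count NDUFA4, a subunit now assigned to cytochrome c oxidase, and its paralog NDUFA4L2 were put with complex IV.

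Oxidative phosphorylation takes place in the inner membrane of the mitochondrion. Complexes I and II pass electrons from NADH and succinate to ubiquinone, complex III hands them to cytochrome c, complex IV passes them to oxygen, and complex V, the ATP synthase, uses the proton gradient that complexes I, III and IV build. Most of the subunits are encoded in the nucleus, so their transcripts pass through the spliceosome, while a small core set is encoded without introns in mitochondrial DNA and is not analysed here.

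K562 is an established chronic myeloid leukaemia line of erythroid character. SF3B1 is the part of the U2 small nuclear ribonucleoprotein that helps to recognise the branch point of an intron, and K700E is a substitution of that protein found in myeloid neoplasms. The comparison was between 2 samples with wild-type SF3B1 (WT) and 2 with SF3B1 K700E. All samples had been given doxycycline at 1 µg/ml, which switches on the modified allele, and were collected 4 days later. The labels do not say whether the lines are single clones, whether the allele sits at its own locus, or whether each replicate is a culture of its own. The p-values therefore reflect only how far these samples scatter, which may be technical. Chromatin was isolated with the polymerase inhibitor α-amanitin present, polyadenylated and ribosomal RNA were removed, and the remaining RNA was read from its 3′ end with PacBio long reads. For each annotated intron the authors counted the reads over it and the reads that carried its splice junction, and the splicing efficiency is the second as a percentage of the first.

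The 4 samples held 459681 to 1346733 read-intron overlaps, fewest in K700E replicate 1, and members took 0.237 to 0.416% of them, or 1410 to 4933 overlaps per sample. Of 716 member introns with a read, 14 had at least 10 reads in every sample, against 6141 of 209481 introns in all genes. No member intron reached 20 reads in every sample. Counts this small give wide intervals: 5 junction reads of 11 correspond to 45.5% with a 95% Wilson interval of 21.3 to 72.0%, and such intervals cover counting error only, because PCR copies could not be told apart. Across the most used introns of all genes, the WT libraries stood at 78.1 and 73.4% efficiency and those of K700E at 64.2 and 75.2%, so K700E replicate 1 was both the shallowest and the least spliced library. The labels call the cells epithelial. Summed over the most covered introns of 14 erythroid and megakaryocytic markers, 81 to 539 reads were counted per sample (KLF1 and EPOR had none), against 9 to 28 for 10 epithelial markers, of which CLDN4 and GRHL2 had none, and 0 to 5 for 5 lymphoid markers. TFRC alone gave 205 and 190 of the erythroid and megakaryocytic reads in WT and 49 and 126 in K700E. GATA1 had 2 to 6 reads per sample, and the epithelial marker KRT18 had 2 to 14.

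The splice junctions on which the member results turn are printed here as they stand in spliced RNA, read from GENCODE 29 transcripts (GRCh38) 5′ to 3′. Lower case marks the exon before the junction and capitals the exon after it. For an exon that is included or skipped, capitals in the included form mark the whole exon. The first is the most covered intron of ATP5F1C (chr10:7797179-7798989, plus strand), and the next pair shows its 35-nt second exon (chr10:7796121-7796155) included and skipped. The ATP5F1B introns are the first one (chr12:56645354-56645836, minus strand) and one of 92 nt (chr12:56642581-56642672), and the ATP5F1A intron is its last (chr18:46084364-46084503, minus strand). The 6 annotated transcripts with the 92-nt intron give 2 different sequences beside it, of which that of a transcript coding on both sides is printed. The SDHC pair shows an exon of 102 nt (chr1:161328396-161328497, plus strand), and the NDUFB8 pair shows introns that end at one 3′ splice site and begin 14 nt apart (chr10:100527075-100529379 and chr10:100527075-100529365, minus strand).
ATP5F1C most covered intron: gattgggatctttagCTCTGTATGAAAAAG
ATP5F1C 35-nt exon included: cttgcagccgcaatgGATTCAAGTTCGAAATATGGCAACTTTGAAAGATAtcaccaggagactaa
ATP5F1C 35-nt exon skipped: cttgcagccgcaatgTCACCAGGAGACTAA
ATP5F1B first intron: cggcggtccatcctgTCAGGGACTATGCGG
ATP5F1B 92-nt intron: caggctggttcagagGTGTCTGCATTATTG
ATP5F1A last intron: gttgggcactatcagGGCTGATGGAAAGAT
SDHC 102-nt exon included: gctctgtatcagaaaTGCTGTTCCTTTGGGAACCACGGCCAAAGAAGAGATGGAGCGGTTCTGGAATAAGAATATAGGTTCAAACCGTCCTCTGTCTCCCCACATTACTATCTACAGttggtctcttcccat
SDHC 102-nt exon skipped: gctctgtatcagaaaTTGGTCTCTTCCCAT
NDUFB8 2305-nt intron: ggatgatggcatgggGTATGGCGACTACCC
NDUFB8 2291-nt intron: ggtgagacagagaggGTATGGCGACTACCC

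No member gene or intron passed a test between K700E and WT. ATP synthase had the most overlaps of the complexes, mostly from ATP5F1A, ATP5F1B and ATP5F1C. In it 5 of 19 members had 10 or more overlaps in every sample, compared with 8 of 38 in complex I. The pooled efficiency of the most used introns of ATP synthase separated the groups, with both K700E samples below both WT samples. Complex I was spliced to about the same extent in all 4 samples. The overlap of its groups rests on an annotated NDUFV2 intron without junction reads. Complexes III and IV were low in K700E replicate 1 alone. In nascent reads over the most covered intron of each gene, ATP5F1B, the catalytic β subunit of ATP synthase, stood lowest in K700E relative to WT. Its unadjusted p under 0.05 by edgeR's quasi-likelihood test did not survive adjustment.

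Per intron, 0 of 13 member introns had an adjusted p under 0.05 by edgeR's quasi-likelihood test with Benjamini-Hochberg adjustment, where 5 of 5093 introns of all genes did (0.0982%). At an unadjusted p under 0.05 the counts were 0 of the 13 and 156 of 5093 (3.06%), and DESeq2 called 0 of either. Both K700E samples lay below both WT samples at 4 of 14 member introns, against 16.5% of all introns measured, and above both at 1 of 14, against 7.62%. The group mean was lower in K700E at 11 of 14 (51.1% of all introns) and higher at 2 (31.8%). The median difference, K700E minus WT, was −6.25 percentage points over the 14 and −0.263 over all 6141. The 14 introns lie in 4 genes, and 10 of them are ATP5F1C introns that share reads. Their median is the value of the ATP5F1C introns on either side of a 57-nt exon. Those had junction reads in WT replicate 2 alone (12.5%). The 4 introns lower in both K700E samples include the junction that skips the 35-nt ATP5F1C exon. The mean over the 14 introns was 58.2 and 61.4% in WT compared with 50.4 and 54.7% in K700E, a difference of −7.22 points. Without K700E replicate 1 the read minimum admitted 54 introns, and the difference over that larger set was −2.81 points. The sample and the set of introns changed together there, so −2.81 and −7.22 are not over the same introns.

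Per gene, all introns of a gene were summed, and 21 member genes had at least 10 overlaps in every sample. edgeR's quasi-likelihood test with Benjamini-Hochberg adjustment called 0 of these 21, as it called 0 of 4897 genes in all (0%), and at an unadjusted p under 0.05 it gave 0 of 21 and 167 of 4897 (3.41%). DESeq2 called 0 of the 21 and 1 of 4897. The group mean was lower in K700E in 16 of the 21 genes (62.1% of all genes) and higher in 5 (37.2%). Both K700E samples lay below both WT samples in ATP5F1A, ATP5F1B, ATP5PB, NDUFA10 and UQCRC2 (5 of 21, against 21.2% of all genes), and above both in NDUFA4 and NDUFA9 (2 of 21, against 10.2%). In ATP5F1A, WT replicate 2 and K700E replicate 2 both stood at 40.5%, so this separation is close to a tie. The most used introns of UQCRC2 did not separate the groups, with K700E replicate 2 (98.6%) above both WT samples. The median difference over the 21 genes was −4.94 points, beside −2.47 over all 4933.

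Many annotated introns of these genes overlap others that are used more, and reads over a less used intron dilute the efficiency. Introns were therefore also taken in order of their junction reads over all 4 samples, leaving out any that overlapped one already taken. This left 363 of the 716. Over these most used introns, member efficiency was 78.6 and 76.7% in WT compared with 64.3 and 73.1% in K700E. Over all member introns it was 51.4 and 42.3% in WT compared with 37.1 and 40.8% in K700E, and both sets put the 2 K700E samples below the 2 WT samples. Leaving out ATP5F1A, ATP5F1B and ATP5F1C, the genes with the deepest coverage, gave 78.1 and 76.0% in WT compared with 64.0 and 73.4% in K700E over the most used introns. All genes of the series had the values given above, with K700E replicate 2 between the 2 WT samples.

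**Figure D1:**
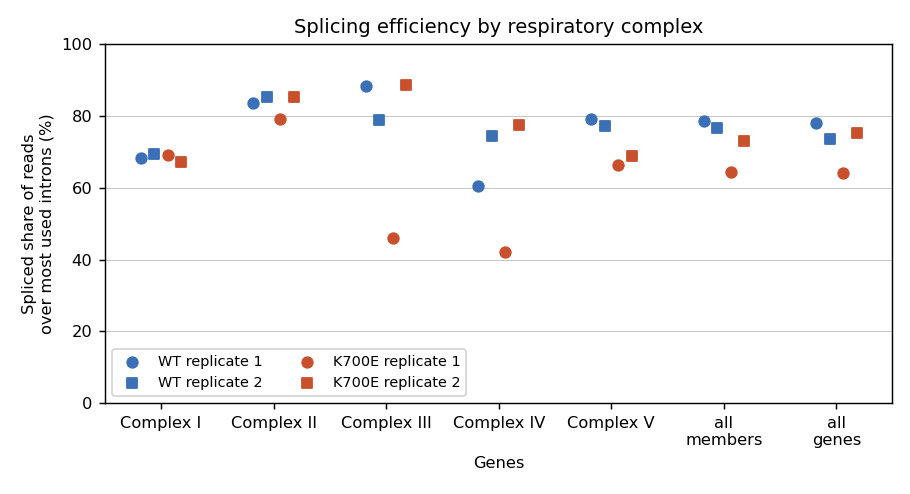
Splicing efficiency (vertical axis, spliced reads as a percentage of reads over the most used introns) of members grouped by respiratory complex, all members and all genes of the series; each point is 1 sample, blue for WT and orange for K700E, circles for replicate 1 and squares for replicate 2. Complex I points lie between 67.2 and 69.4%, the complex V points of K700E (66.2 and 69.0%) lie below those of WT (79.3 and 77.2%), and K700E replicate 1 is the lowest point of complexes II, III, IV and V.

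Complex I, the NADH dehydrogenase, had 38 members, of which 8 had at least 10 overlaps in every sample. Over its most used introns the efficiency was 68.4 and 69.4% in WT compared with 69.2 and 67.2% in K700E. The groups overlap, and the lowest and the highest of the 4 values are 67.2 and 69.4%. The counts were 249 of 364 and 394 of 568 overlaps in WT, compared with 162 of 234 and 340 of 506 in K700E. They include an annotated NDUFV2 intron without junction reads, with 21 and 16 overlaps in WT and 5 and 18 in K700E. With that intron left out, both K700E values would lie below both WT values, so the overlap of the groups rests on it.

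NDUFB8, an accessory subunit of the membrane arm, had the most covered intron of the complex (chr10:100526555-100526974, in the coding region), with 12 and 20 reads in WT compared with 11 and 18 in K700E. Its efficiency was 58.3 and 75.0% in WT compared with 72.7 and 44.4% in K700E. The K700E samples were thus the second highest and the lowest. The fitted log2 odds ratio was −0.82 ± 1.12 (SE), with an adjusted p of 0.985 by edgeR's quasi-likelihood test with Benjamini-Hochberg adjustment. The introns of this gene are shared with the annotation AL133352.1.

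NDUFV2, a core subunit that carries an iron-sulphur cluster, had an annotated first intron of a noncoding transcript (chr18:9117639-9117837) with 21 and 16 reads in WT compared with 5 and 18 in K700E and no junction read in any sample. A count of 0 in 21 reads allows an efficiency of up to 14.3%. The most used introns of NDUFV2 include this one, so its unspliced reads lower their pooled efficiency in every sample. Summed over them, NDUFV2 was spliced in 38.8 and 17.6% of overlaps in WT, compared with 15.0 and 41.5% in K700E. Replicates of one group were thus farther apart than the group means.

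NDUFS1, the largest core subunit, was spliced in 68.8 and 96.8% of most used overlaps in WT, compared with 57.9 and 77.1% in K700E. The spread between the WT samples was larger than the difference of −15.3 points between group means. NDUFA10, an accessory subunit, had 89.7 and 86.5% in WT compared with 77.4 and 83.3% in K700E, and both K700E values were below both WT values. NDUFA9, an accessory subunit near the quinone site, had 85.0 and 94.7% in WT compared with 95.7 and 95.8% in K700E, with both K700E values above both WT values. The NDUFA10 and NDUFA9 differences lay on opposite sides of 0 and had adjusted p-values of 1.00 each by edgeR's quasi-likelihood test with Benjamini-Hochberg adjustment, fitted on all introns of the gene. Most NDUFA9 introns are shared with the annotation AC005833.1. NDUFA5 and NDUFS4 differed by 5.10 and −4.94 points over all introns.

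Complex II, succinate dehydrogenase, links the tricarboxylic acid cycle to the respiratory chain and has 4 members, of which 3 were measured. Its most used introns were spliced at 83.6 and 85.3% in WT compared with 79.1 and 85.4% in K700E. The K700E samples were the lowest and the highest of the 4.

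SDHC and SDHD anchor the complex in the membrane. SDHD was spliced in 100 and 91.6% of most used overlaps in WT, compared with 87.5 and 91.1% in K700E, and SDHC in 93.9 and 82.9% in WT, compared with 69.8 and 86.7% in K700E. Summed over all introns, SDHD differed by −0.66 points and SDHC by −2.92 points between groups. SDHA, the flavoprotein subunit, had 71.4 and 92.9% in WT compared with 91.7 and 58.3% in K700E over most used introns, so that each group had one high and one low sample. SDHB, the iron-sulphur subunit, had only 6 overlaps in WT replicate 1 and in K700E replicate 1 and was not tested.

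Complex III, the cytochrome bc1 complex, had 10 members, of which UQCRC1, UQCRC2 and UQCRH were measured in every sample. Its most used introns were spliced at 88.3 and 78.9% in WT compared with 45.9 and 88.6% in K700E. K700E replicate 1 stood far below the other samples, and K700E replicate 2 was the highest of the 4.

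UQCRC1 and UQCRC2 encode the core proteins of the matrix side. UQCRC2 had 162 spliced of 166 overlaps and 96 of 99 in WT compared with 19 of 34 and 69 of 70 in K700E. UQCRC1 had 115 of 124 and 77 of 99 in WT compared with 24 of 50 and 71 of 75 in K700E. Without K700E replicate 1 the remaining K700E value, 98.6% for UQCRC2 and 94.7% for UQCRC1, lay above both WT values in each gene. The share of spliced reads was also lowest in that library across all genes, and the part of the library in these values was not tested. UQCRH, the hinge protein, had 2 to 15 overlaps with its most used introns per sample and no order between the groups.

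Complex IV, cytochrome c oxidase, had 19 members and the least coverage, with 45 to 107 overlaps per sample over its most used introns. Efficiency there was 60.4 and 74.4% in WT compared with 42.2 and 77.6% in K700E, again with K700E replicate 1 lowest and K700E replicate 2 highest. Only NDUFA4 and COX6C had 10 overlaps in every sample.

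NDUFA4 had the most covered intron of the complex, an annotated intron of 357 nt (chr7:10939603-10939959) that lies inside the used first intron. It had 21 and 42 reads in WT compared with 7 and 39 in K700E, and none carried its junction. Over the used introns NDUFA4 was spliced in 4 of 12 and 6 of 12 overlaps in WT, compared with 6 of 7 and 13 of 23 in K700E. Both K700E samples were above both WT samples, with an adjusted p of 1.00 by edgeR's quasi-likelihood test with Benjamini-Hochberg adjustment on all introns. COX6C, a small structural subunit, was spliced in all 11, 21 and 5 most used overlaps of the WT samples and of K700E replicate 1, and in 24 of 28 in K700E replicate 2.

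Complex V, the ATP synthase, gave the most overlaps, mostly from ATP5F1A, ATP5F1B and ATP5F1C. Its most used introns were spliced at 79.3 and 77.2% in WT compared with 66.2 and 69.0% in K700E, and the groups did not overlap. Without ATP5F1A, ATP5F1B and ATP5F1C the other genes of the complex gave 80.2 and 75.3% in WT compared with 69.5 and 60.7% in K700E. The order of groups was the same, over 82 to 239 overlaps per sample.

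ATP5F1A and ATP5F1B encode the α and β subunits that form the catalytic head, and ATP5F1C encodes the γ subunit of the rotating stalk. Together they took 48.1 and 41.2% of all member overlaps in WT but 26.2 and 27.0% in K700E. The other members therefore made up a larger share of the member reads in both K700E samples. The fall lay in ATP5F1A (462 and 701 overlaps in WT, 131 and 274 in K700E) and ATP5F1B (728 and 1147 in WT, 84 and 315 in K700E). ATP5F1C had 348 of 3198 and 184 of 4933 member overlaps in WT, compared with 155 of 1410 and 264 of 3159 in K700E. The share of ATP5F1C was thus not lower in K700E.

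**Figure D2:**
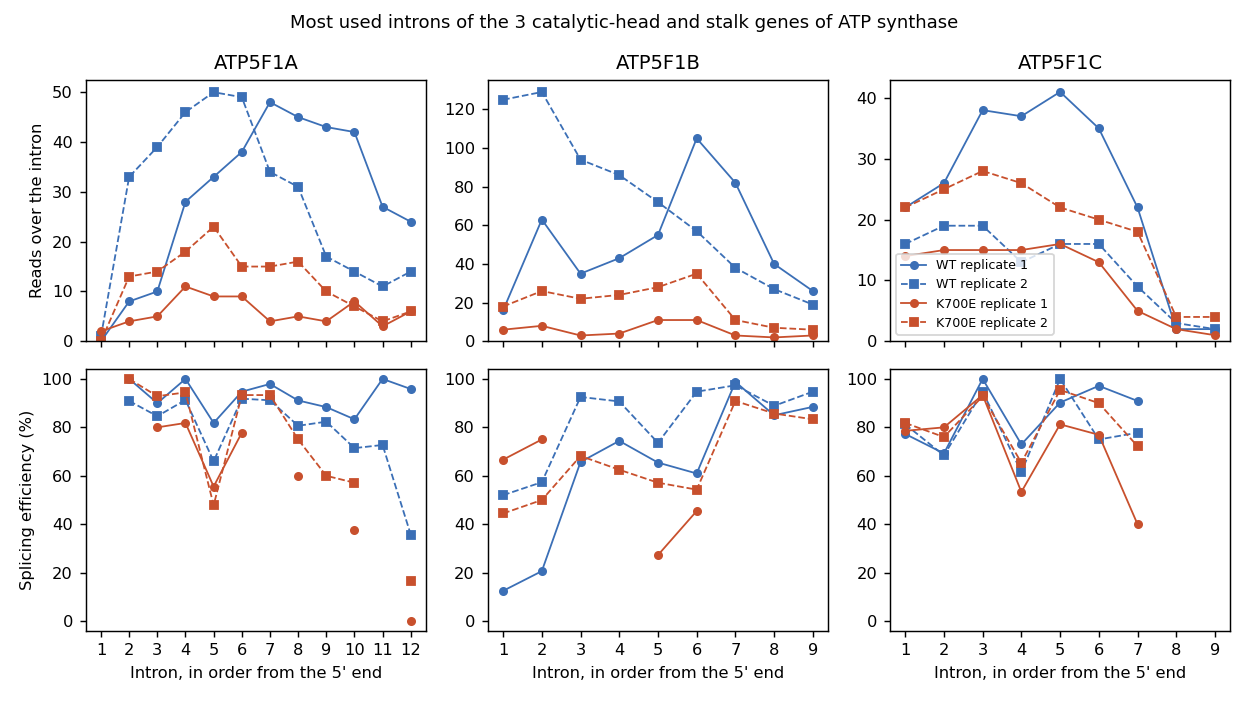
Reads over each most used intron (upper row, vertical axis in reads) and splicing efficiency in percent where the sample had at least 5 reads (lower row) of ATP5F1A, ATP5F1B and ATP5F1C, with introns in order from the 5′ end on the horizontal axis; lines join the introns of 1 sample, blue for WT and orange for K700E, solid for replicate 1 and dashed for replicate 2. ATP5F1B coverage peaks at the second intron in WT replicate 2 (129 reads) and at the sixth in WT replicate 1 (105 reads), and ATP5F1C coverage drops to 2 to 4 reads at the eighth intron in every sample.

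ATP5F1B was read unevenly along its length. Over its second intron (chr12:56644956-56645170) 13 of 63 reads in WT replicate 1 and 74 of 129 in WT replicate 2 were spliced, and 6 of 8 and 13 of 26 in K700E. Over its first intron the counts were 2 of 16 and 65 of 125 in WT compared with 4 of 6 and 8 of 18 in K700E. At both 5′ introns WT replicate 1 was the least spliced sample, and K700E replicate 1, with fewer than 10 reads, the most spliced.

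The 92-nt sixth intron of ATP5F1B, shown above, was spliced in 64 of 105 and 54 of 57 reads in WT, compared with 5 of 11 and 19 of 35 in K700E, or 61.0, 94.7, 45.5 and 54.3%. The fifth intron (chr12:56642832-56643402) was spliced in 36 of 55 and 53 of 72 reads in WT, compared with 3 of 11 and 16 of 28 in K700E. At both introns the K700E values lay below the WT values. The differences of −28.0 and −27.3 points came with log2 odds ratios of −1.29 ± 0.84 and −1.30 ± 0.89 (SE) and adjusted p-values of 0.985 each by edgeR's quasi-likelihood test with Benjamini-Hochberg adjustment. The seventh intron (chr12:56640193-56642457) was spliced in 81 of 82 and 37 of 38 reads in WT, compared with 3 of 3 and 10 of 11 in K700E, so nearly every read was spliced in each sample.

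ATP5F1A was spliced in 319 of 346 and 276 of 339 most used overlaps in WT, compared with 38 of 70 and 109 of 141 in K700E, or 92.2, 81.4, 54.3 and 77.3%. Both K700E values were lower than both WT values, by 21.0 points between group means, with the spread between the K700E samples (SD 16.3) close to that size. The last intron, shown above, had 23 of 24 and 5 of 14 spliced reads in WT compared with 0 of 6 and 1 of 6 in K700E. It held too few reads for the test. The fifth intron, of 90 nt (chr18:46089733-46089822) was the least spliced of the third to sixth introns in every sample, with 27 of 33 and 33 of 50 in WT compared with 5 of 9 and 11 of 23 in K700E.

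ATP5F1C was the member with the most introns at 10 reads in every sample, 10 in all. Its most covered intron was spliced in 38 of 38 and 18 of 19 reads in WT, compared with 14 of 15 and 26 of 28 in K700E. The fourth intron (chr10:7799195-7799771) was less spliced in every sample, with 73.0 and 61.5% in WT compared with 53.3 and 65.4% in K700E, and the groups overlapped. The second intron (chr10:7796156-7797046) was the only 1 of the 14 with both K700E samples above both WT samples, at 80.0 and 76.0% against 69.2 and 68.4%. Over the most used introns of the gene, efficiency was 85.8 and 77.0% in WT compared with 72.9 and 80.5% in K700E, so this gene did not separate the groups.

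**Figure D3:**
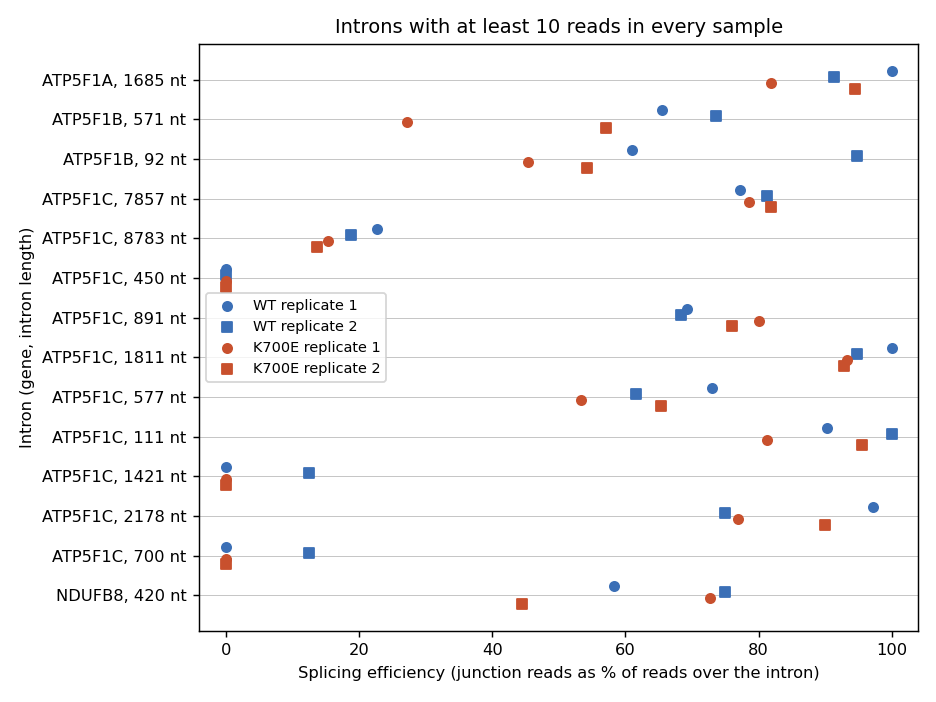
Splicing efficiency (horizontal axis, junction reads as a percentage of reads over the intron) of the 14 member introns that reached 10 reads in every sample, named on the vertical axis by gene and intron length and ordered from 5′ to 3′ within a gene; each point is 1 sample, blue for WT and orange for K700E. The ATP5F1B introns of 571 and 92 nt have both K700E points below both WT points, and 3 annotated ATP5F1C introns of 450, 1421 and 700 nt have between 0 and 12.5%.

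ATP5PB, a subunit of the peripheral stalk, was spliced in 53 of 64 and 107 of 112 most used overlaps in WT, compared with 12 of 19 and 49 of 60 in K700E. The K700E values of 63.2 and 81.7% lay below the WT values of 82.8 and 95.5%. ATP5PO, which joins that stalk to the head, had 15 of 20 and 17 of 23 in WT compared with 23 of 24 and 3 of 14 in K700E. In ATP5PO, K700E replicate 1 was the highest sample and K700E replicate 2 the lowest.

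Across the 37 most used member introns that reached 5 reads in every sample, which lie in 11 genes, K700E replicate 1 alone was lowest at 23, K700E replicate 2 at 6 and each WT sample at 3. Introns of up to 500 nt had mean efficiencies of 67.8 and 65.7% in WT compared with 48.6 and 61.4% in K700E (18 introns). Longer introns had 89.2 and 83.9% in WT compared with 73.1 and 86.8% in K700E (19 introns). The shorter introns were thus less spliced in each of the 4 samples. Introns of a gene share reads, and ATP5F1A, ATP5F1B and ATP5F1C supply many of them, so these means describe the introns and carry no test.

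Nascent output was read as the number of reads over the most covered intron of each gene, scaled to the TMM-adjusted total of such reads over the genes tested (CPM). In bulk samples, fewer transcribing cells and less RNA per cell cannot be told apart. Of 14 member genes with enough reads, edgeR's quasi-likelihood test with Benjamini-Hochberg adjustment called 0, as it called 0 of 2975 genes in all (0%). At an unadjusted p under 0.05 it gave 1 of 14 and 166 of 2975 (5.58%), and DESeq2 also called 0 of either. Both K700E samples were below both WT samples in ATP5F1A, ATP5F1B and ATP5PB (3 of 14, against 17.1% of all genes), and above both in NDUFB8 (1 of 14, against 18.3%). The fold change was below 1 in 5 of the 14 (51.8% of all genes) and above 1 in 9 (48.2%). The median log2 fold change was 0.17 over the 14 genes and −0.03 over all, but without WT replicate 1 both turned sign, to −0.21 over 19 members and 0.08 over all. The sign of the fold change turned under at least 1 alternative in 9 of the 14 genes and held under each one run in ATP5F1A, ATP5F1B, ATP5F1C, ATP5PB and NDUFB8.

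ATP5F1B had 63 and 129 reads in WT compared with 8 and 26 in K700E over its second intron, or 682 and 1496 CPM against 242 and 378 CPM. The WT samples themselves were far apart, and both lay above both K700E samples. This intron was chosen by its reads summed over all samples, most of which came from WT, and WT replicate 1 had its peak at the sixth intron instead. Summed over all introns, the unscaled overlaps were 728 and 1147 in WT compared with 84 and 315 in K700E. The log2 fold change over the second intron was −1.78 ± 0.69 (SE), with an adjusted p of 0.825 by edgeR's quasi-likelihood test with Benjamini-Hochberg adjustment, and it was −1.11 without WT replicate 2.

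ATP5F1A had 357 and 580 CPM in WT compared with 272 and 334 CPM in K700E, and ATP5PB had 195 and 302 CPM in WT compared with 181 and 174 CPM in K700E. Their log2 fold changes were −0.61 ± 0.61 and −0.48 ± 0.62 (SE), each no larger than its error. UQCRC1 and UQCRC2 had −0.35 ± 0.71 and −0.12 ± 0.68, and their groups overlapped. UQCRC2 had −0.66 with all introns summed, and both genes turned above 0 without WT replicate 1. These are the 5 members with the lowest fold changes.

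At the other end, NDUFB8 had 130 and 232 CPM in WT compared with 332 and 261 CPM in K700E, a log2 fold change of 0.69 ± 0.61 (SE) whose adjusted p by edgeR's quasi-likelihood test with Benjamini-Hochberg adjustment was 0.880. With the reads of all its introns summed, the log2 fold change of NDUFB8 was 0.09. ATP5MC3 (0.60 ± 1.06), ATP5F1C (0.43 ± 0.61), SDHC (0.36 ± 0.72) and NDUFS1 (0.25 ± 0.98) followed, with overlapping groups in each. ATP5F1C had 411 and 220 CPM in WT compared with 453 and 407 CPM in K700E, with WT replicate 1 between the K700E samples. The remaining genes, SDHD, NDUFA4, NDUFA5 and NDUFV2, had log2 fold changes of 0.05 to 0.20 with errors of 0.61 to 0.80.

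**Figure D4:**
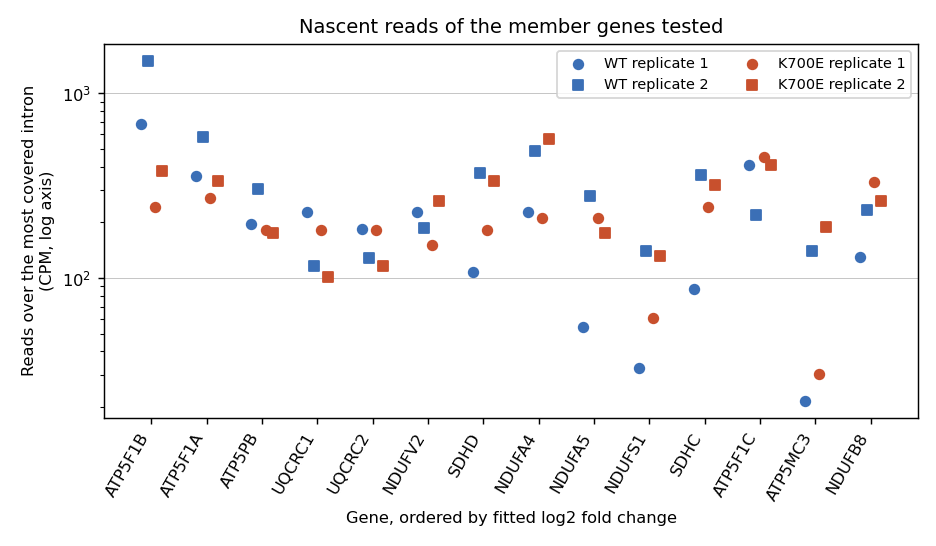
Reads over the most covered intron (vertical axis, CPM on a log axis) of the 14 member genes tested, ordered on the horizontal axis by fitted log2 fold change from −1.78 (ATP5F1B) to 0.69 (NDUFB8); each point is 1 sample, blue for WT and orange for K700E, circles for replicate 1 and squares for replicate 2. Both K700E points lie below both WT points in ATP5F1B, ATP5F1A and ATP5PB.

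Alternative exons and splice sites were counted from junction reads. The 35-nt exon of ATP5F1C, shown above in both forms, has a length that is not a multiple of 3. Its skipping junction had 5 and 3 reads in WT compared with 2 and 3 in K700E, beside 17 and 13 against 11 and 18 reads on its upstream junction and 18 and 13 against 12 and 19 on its downstream junction. The skipped share, skipping reads over skipping reads plus the mean of both inclusion junctions, was 22.2 and 18.8% in WT compared with 14.8 and 14.0% in K700E. Both K700E values were below both WT values, and the log2 odds ratio of the skipping junction was −0.65 ± 1.32 (SE) with an adjusted p of 0.985 by edgeR's quasi-likelihood test with Benjamini-Hochberg adjustment.

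The 102-nt exon of SDHC, a multiple of 3, was skipped by 1 and 1 junction reads in WT and by 2 and 3 in K700E, and the skipped share, computed as before, was 15.4, 3.92, 30.8 and 14.6%, so the groups overlapped. The 164-nt SDHC exon (chr1:161356677-161356840) was skipped by 0 and 4 reads in WT and by 2 and 2 in K700E. NDUFB8 used the 5′ splice site of its 2305-nt intron in 6 and 7 reads in WT compared with 4 and 8 in K700E, and the site 14 nt into that intron in 2 and 4 reads in WT compared with 0 and 0 in K700E. This pair was not tested.

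SF3B1 substitutions are known for the use of cryptic 3′ splice sites, so annotated 3′ splice sites that share a 5′ splice site were compared. Among 36 member pairs lying 12 to 200 nt apart, both sites had junction reads in 1 (NDUFA13), 1 site alone in 26, and neither in 9. The NDUFA13 pair, 157 nt apart, had a single read at the less used site, in WT replicate 2. Among 51 pairs of 5′ splice sites, 9 had reads at both. Pairs under 12 nt apart are not resolved by these tables: all 11 such member pairs with junction reads had the same count at both sites in every sample. Sites that the annotation lacks were not analysed here.

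Of 307 member introns with at least 10 reads over all samples together, 98 had no junction read (31.9%), against 22.2% of 84161 introns in all genes. Of these 98, at least 96 overlapped an annotated intron of the same strand that ranked higher by junction reads, or by reads over it in a tie. The 96 are those left out of the most used set. An intron whose higher-ranked partner was itself left out, like that of NDUFV2 described above, is not among them.

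Several subunits have paralogs. The c subunits of ATP synthase, encoded by ATP5MC1, ATP5MC2 and ATP5MC3, were all seen, with 88, 60 and 108 overlaps over the 4 samples. ATP5MC2 was spliced in 3 of 3 and 6 of 8 most used overlaps in WT, compared with 2 of 7 and 4 of 15 in K700E. ATP5MC1 went the other way, with 7 of 26 in WT replicate 2 and no overlap in WT replicate 1, compared with 3 of 7 and 8 of 10 in K700E. ATP5MC3 had 14 of 16 and 30 of 40 in WT, compared with 3 of 3 and 13 of 33 in K700E, and its groups overlapped. Each had too few reads for the efficiency test. COX4I1 had 153 overlaps and its paralog COX4I2 had 10. COX6A1 had 25, while COX6A2, the form known from heart and skeletal muscle, had none. COX7A2 and COX7A2L had 28 and 43, and COX7A1, also known from muscle, had 5 in 1 WT sample. These are counts of reads over introns and are not scaled by length, so they are not levels that can be ranked between genes.

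The other members had too little coverage in at least 1 sample. No read was placed on ATP5F1D, ATP5MGL, COX6A2, COX6B2, COX8C, NDUFA3, NDUFA4L2, NDUFA6, NDUFB10, NDUFC2-KCTD14, UQCR10 or UQCRHL, and they are not analysed here. In complex I, NDUFA1, NDUFA2, NDUFA7, NDUFA8, NDUFA11, NDUFA12, NDUFA13, NDUFAB1, NDUFB1 to NDUFB7, NDUFB9, NDUFB11, NDUFC1, NDUFC2, NDUFS3, NDUFS5 to NDUFS8, NDUFV1 and NDUFV3 fell below 10 overlaps in a sample. So did SDHB in complex II, CYC1, UQCRB, UQCRFS1, UQCRQ and UQCR11 in complex III, COX4I1, COX4I2, COX5A, COX5B, COX6A1, COX6B1, COX7A1, COX7A2, COX7A2L, COX7B, COX7B2, COX7C and COX8A in complex IV, and ATP5F1E, ATP5MC1 to ATP5MC3, ATP5MD to ATP5MG, ATP5MPL, ATP5PD, ATP5PF and the readthrough ATP5MF-PTCD1 in complex V. Introns of the readthrough are shared with PTCD1, so its reads may belong to that gene.

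Genes of neighbouring processes were measured in the same way, and edgeR's quasi-likelihood test with Benjamini-Hochberg adjustment called 0 in each list in either measure. Among 12 measured assembly factors, which build the complexes, efficiency was lower in K700E in 4 and higher in 8. Among 13 genes of pyruvate oxidation and the tricarboxylic acid cycle it was lower in 10 and higher in 3, and among 11 genes of mitochondrial gene expression and its regulators lower in 7 and higher in 4. Mitochondrial ribosomal proteins had it lower in 4 and higher in 12 of 16, and glycolysis lower in 9 and higher in 4 of 13. The median differences were 3.42, −5.65, −1.98, 3.09 and −3.22 points in that order, beside −4.94 for the members and −2.47 for all genes.

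In nascent reads the glycolytic genes were lower in K700E in 11 of 13, with a median log2 fold change of −0.52, and the mitochondrial ribosomal proteins higher in 11 of 13, with a median of 0.54, beside 51.8% lower and 48.2% higher over all genes. Assembly factors were lower in 2 and higher in 5 (median 0.21), pyruvate oxidation and the tricarboxylic acid cycle lower in 2 and higher in 3 (0.37), and mitochondrial gene expression lower in 2 and higher in 4 (0.20). LDHA, lactate dehydrogenase, had 113 and 25 reads in WT compared with 3 and 15 in K700E, and DAP3, a small-subunit ribosomal protein, had 3 and 11 in WT compared with 9 and 19 in K700E. Their log2 fold changes of −2.20 and 1.77 had adjusted p-values of 0.825 each by edgeR's quasi-likelihood test with Benjamini-Hochberg adjustment. CS, citrate synthase, had the smallest efficiency p of the tricarboxylic acid cycle list (0.0581, adjusted p 1.00 by the same edgeR test), with 36.3 and 26.9% in WT compared with 4.05 and 19.2% in K700E.

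UQCC1, an assembly factor of complex III known for a cryptic 3′ splice site in cells with SF3B1 substitutions, was spliced in 18 of 20 and 29 of 31 most used overlaps in WT, compared with 14 of 16 and 25 of 31 in K700E. These are 90.0, 93.5, 87.5 and 80.6%, with both K700E values below both WT values, and the adjusted p on all introns was 1.00 by edgeR's quasi-likelihood test with Benjamini-Hochberg adjustment. The order was the same over all its introns, as it was in 21.2% of all genes. Only annotated junctions were counted, and use of the cryptic site was not examined.

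The promoters of the members were searched for motifs of factors known to act on respiratory genes, on both strands of the window from 250 bases before to 50 after the gene start in the RefSeq table (GRCh38.p14), where 71 of 90 members matched. The NRF1 motif GCGCNTGCG was found in 23 of 71 member promoters (32.4%) and in 8.05% of 27305 promoters of all genes, with the first start listed for each gene. The ETS motif CCGGAAGT, of the kind that GABPA binds, was found in 10 (14.1%, against 4.44%), and the YY1 motif AAGATGGCG in 8 (11.3%, against 1.85%). At least 1 of these motifs lay in 47.9% of member promoters and 13.1% of all, while the TATA motif TATAAAA was about as frequent in members (4.23%) as in all (4.71%). The NRF1 and YY1 motifs were first counted in forms 1 base longer, and the shorter forms were taken after those counts had been seen. The members are protein-coding by rule, while the promoters of all genes were not selected by gene type, so the 2 sets may differ in that as well. A match is a stretch of letters and not a bound site, and promoters with and without a motif were not compared between WT and K700E. The NRF1 motifs of 4 members tested above are printed with the motif, in either orientation, in capitals: ATP5F1C at chr10:7788146-7788174, SDHD at chr11:112086754-112086782, UQCRC1 at chr3:48609675-48609703 and NDUFA9 at chr12:4649024-4649052.
ATP5F1C: ggagcttcggCGCATGCGCgctgaggcct
SDHD: gctgtgtttgCGCATGCGCgacgggtgtg
UQCRC1: gtacggtactGCGCCTGCGccgcgaccgc
NDUFA9: ttcttggttaGCGCTTGCGcagacaggcg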

How the data were processed

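The authors deposited, for each of 4 samples, a table of annotated introns with 2 raw counts, reads that cover the intron and reads spliced at its junction, and the ratio of both. Per the submitters' processing notes cutadapt, minimap2 and hg38 were used, and no source names the rule by which reads were assigned. Whether counting used strand is not stated, so reads of antisense genes cannot be told apart. Deposited tables of RNA 3′ end positions name no gene and were not used.

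Rows were matched to GENCODE 29 on transcript, number of the intron, start and strand (87.3 to 87.6% of rows). Rows with the same coordinates were counted once, and ratios above 1 were set to 1. Spliced and unspliced counts were tested as paired columns, with an interaction with genotype, in edgeR 4.0.16 (R 4.3.3): per intron with negative binomial dispersion 0, and per gene with estimated dispersion, both with at least 10 reads or overlaps in every sample. Reads over the most covered intron of each gene were tested with TMM scaling after filterByExpr. Fits ran on all genes, and p-values were adjusted by Benjamini-Hochberg over all of them. DESeq2 1.42.0 was an alternative. On simulated counts, the intron test called 20% of 4-unit and 1% of 2-unit log2 changes, the gene test 82 and 35%, and the nascent test 98.0 and 18.2%, with 0, 6 and 6 unchanged features called, over 4985, 4899 and 2521 features. These tests therefore miss most intron changes of moderate size at this depth.

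The members and lists were chosen with earlier results of these data known. Named genes were those called (none), the 2 with the most reads in each complex, the 5 with the largest nascent fold change in each direction, paralogs of one subunit, UQCC1, members below the filter and, from the other lists, genes with the smallest p. A rule for introns with 20 reads in every sample selected none. The introns, exons and further genes described were chosen after their values were seen. Group totals carry no test.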

Additional observations from a re-analysis of the deposited data

How the results depend on the processing

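No member intron or gene was called under any alternative. Of 502 values of single introns and genes, 487 moved by no more than the spread between replicates. For efficiency this was largely fixed in advance. Efficiency differences are raw differences of group means, which a change of test, dispersion, block or read minimum leaves as they are. Leaving out 1 of 2 samples in a group cannot move them past that spread. The mean difference over member introns, −7.22 points, was −12.0 when pooled over reads, and leaving out each sample in turn gave −9.34 to −2.81 (lowest without K700E replicate 2, smallest without K700E replicate 1, which then admits 54 introns). A minimum of 20 reads left no member intron and gave no value. Over all introns, 5 calls became 2 with an estimated dispersion, 0 with DESeq2, 3 with a replicate block and 0 to 12 when a sample was left out. Over all genes, 0 efficiency calls became 1 with DESeq2 or with the most used introns alone. In nascent reads, 0 calls became 1 without a filter, 2 with the replicate block, 162 without WT replicate 2 and 8 without WT replicate 1. The labels give the samples only a number, the K700E samples are numbered otherwise inside the deposited tables than in their titles, and same-numbered samples deviated with a correlation of −0.17 over introns; the replicate block left the count of member calls at 0 in each test, and the crossed pairing, added after seeing the data, gave 5 calls over all introns and 0 among members. Without K700E replicate 2 the nascent log2 fold changes of ATP5MC3, NDUFA4 and NDUFV2 were −1.39, −0.78 and −0.46, the other sign than with all samples, and summing all introns turned ATP5MC3, NDUFA5 and SDHD to −0.29, −0.31 and −0.22. Over all alternatives the sign turned in 9 of 14 genes in nascent reads and in 9 of 21 in efficiency. Placing rows without the intron number, also added after seeing the data, changed no member call. With 2 samples a group and few reads per intron, depth limits every statement on single introns.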
